A study of Arabidopsis thaliana with 8 samples.

Results

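SAUR genes (SMALL AUXIN UP RNA) were taken as every row of the deposited expression table whose gene name was SAUR followed only by digits, which gave 16 genes among 27655 rows. The study measured messenger RNA in Arabidopsis thaliana seedlings, ecotype Columbia (Col-0), 7 days old and raised at 22 °C with 16 h of light and 8 h of dark. The 4 groups were prp43a seedlings held at 38 °C for 16 h, wild-type seedlings held at 38 °C for 16 h, prp43a seedlings without treatment and wild-type seedlings without treatment. Each group had 2 libraries, which the labels call biological replicates. The prp43a seedlings carry the allele prp43a-1, a single T-DNA insertion line in PRP43a, a factor that the series title places in splicing disassembly, the release of spent spliceosomes after splicing. A single line was measured, so the insertion and any other difference between that line and Col-0 cannot be told apart. The labels do not give the hour of harvest, so the heat treatment and the hour or the added age at harvest cannot be told apart either.

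The depth recovered from the table was 4071034 to 4783628 reads per library. Across genes, r was 0.976 to 0.985 between libraries of 1 condition and 0.743 to 0.767 between heat and control libraries. No source used here pairs PRP43a with a locus. The gene with the smallest adjusted p in both genotype comparisons was AT3G62310, annotated as an RNA helicase family protein. It had 10.3 and 8.24 TPM in heated prp43a, against 64.6 and 72.4 TPM in heated wild type. In controls it had 1.68 and 1.44 TPM in prp43a, against 26.7 and 29.8 TPM in wild type. TPM is a share of all transcripts corrected for gene length. RNA of root markers and of green shoot markers, whose sums are given below, was present in every library. The summed TPM of 9 root markers was 117 to 121 in heated prp43a, 111 to 154 in heated wild type, 1165 to 1323 in prp43a controls and 1083 to 1128 in wild-type controls. These sums did not rest on all 9 markers in every library. Each heat library listed 3 to 5 of them at 0, as did wild-type control replicate 1 for 3, and the other control libraries for 0.

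SAUR genes are the largest family of early auxin-responsive genes in plants, and most encode small proteins from a single exon. When auxin binds the TIR1 and AFB receptors, Aux/IAA repressors are degraded and auxin response factors activate targets such as the SAUR genes. SAUR proteins of the SAUR19 group bind and inhibit D-clade type 2C protein phosphatases, which keeps plasma membrane proton pumps phosphorylated and active, acidifies the cell wall and lets cells expand. Their RNAs and proteins are short-lived. Several are also known as targets of the bHLH factors PIF4 and PIF5 and of brassinosteroid signalling, and take part in the elongation of hypocotyls at moderately warm temperature. That growth response occurs well below the 38 °C used here.

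The 16 genes fell into small groups on the chromosomes of the reference annotation (RefSeq, TAIR10.1). SAUR19, SAUR20, SAUR22, SAUR23 and SAUR24 lay in 1 array at chr5:5962773-5984308. SAUR26, SAUR27, SAUR28 and SAUR29 lay in another at chr3:976715-983768. SAUR63 and SAUR68 lay 17314 bases apart at chr1:10304507-10323239. SAUR9 (chr4:17089934-17090873), SAUR15 (chr4:18126057-18126829), SAUR36 (chr2:18641563-18642739) and SAUR75 (chr5:9838812-9839454) had no other of the 16 genes within 20 kb. Each of these 15 genes was annotated as a single-exon gene for a SAUR-like auxin-responsive protein. The gene spans were 587 to 1177 bases, and the exon filled the span except in SAUR20, with 495 of 603 bases.

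The row named SAUR21 was different from the other 15. Its locus was AT5G01830 (chr5:320349-323213, plus strand), a gene with 2865 bases of exon that RefSeq describes as an ARM repeat superfamily protein. RefSeq gives SAUR21 as an older name of a second locus as well, AT5G18030, which is annotated as SAUR-like and lies inside the SAUR19 array. The name SAUR21 therefore does not identify a member of the family in this table, and its values are given below under the locus. The row named SAUR68 was AT1G29510, for which RefSeq also lists the name SAUR67. RefSeq gives SAUR68 as another name of AT1G29490, also a SAUR-like locus. Values below under SAUR68 are those of AT1G29510.

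Members of an array are near copies of each other, which bears on how short reads are shared among them. Coding sequences of the SAUR19 group were 87.7% to 95.2% identical over 10 pairs, those of the SAUR26 group 77.7% to 86.3%, and those of SAUR63, SAUR68 and SAUR75 85.4% to 89.4%. Pairs from different groups were 38.8% to 79.9% identical. The first 90 coding bases of the 5 genes of the SAUR19 array are shown 5′ to 3′ in lower case, with the 15 positions at which they differ in capitals (RefSeq, TAIR10.1).
SAUR19 (chr5:5963216-5963305, minus strand): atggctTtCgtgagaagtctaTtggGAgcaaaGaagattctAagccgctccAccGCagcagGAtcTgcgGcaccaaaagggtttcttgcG
SAUR20 (chr5:5966491-5966580, minus strand): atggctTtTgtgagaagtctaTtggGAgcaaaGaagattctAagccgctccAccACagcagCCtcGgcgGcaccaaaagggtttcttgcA
SAUR22 (chr5:5974874-5974963, minus strand): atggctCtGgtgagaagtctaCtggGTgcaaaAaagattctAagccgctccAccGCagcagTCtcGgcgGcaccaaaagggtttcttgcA
SAUR23 (chr5:5976030-5976119, plus strand): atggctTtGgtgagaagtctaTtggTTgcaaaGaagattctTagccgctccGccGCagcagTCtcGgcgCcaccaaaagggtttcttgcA
SAUR24 (chr5:5983840-5983929, plus strand): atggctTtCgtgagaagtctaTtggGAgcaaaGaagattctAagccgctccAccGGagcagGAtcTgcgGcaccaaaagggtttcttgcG

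Reads were 75 bases long. Of all 75-base windows of the gene spans, 27.6% for SAUR68, 22.7% for SAUR63 and 19.5% for SAUR75 also occurred elsewhere in the genome, 2.50% for SAUR19, 0.189% for SAUR20, 0.181% for SAUR24 and 0 for the other 10 genes. How reads that fit several genes were counted is not given in the sources used here, so the values of SAUR63, SAUR68 and SAUR75 are less certain than the rest.

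The 250 bases before the annotated start of each gene were searched on both strands for 3 motifs: the auxin response element TGTCTC, its variant TGTCGG and the G-box CACGTG, to which PIF factors bind. TGTCTC was found before SAUR15, SAUR20, SAUR22 and SAUR68, which is 25.0% of the 16 genes, against 4.76% of 63 other SAUR-like loci and 10.9% of 27443 protein-coding genes. TGTCGG was found before SAUR28 and SAUR63, which is 12.5%, against 0 of the 63 other SAUR-like loci and 4.16% of protein-coding genes. CACGTG was found before 0 of the 16 genes, against 1.59% of the other SAUR-like loci and 6.49% of protein-coding genes. A match describes letters in the window and is not evidence of binding. Genes with and without a motif were called lower after heat in both genotypes. With a motif these were SAUR15, SAUR20, SAUR28, SAUR63 and SAUR68, and without one SAUR9, SAUR23, SAUR24, SAUR27 and SAUR29. SAUR22, which has TGTCTC, was called in neither genotype, with log2 fold changes of 0.48 in prp43a and -0.13 in wild type. Whether the motifs bear on the heat response was not tested. The windows of SAUR15, SAUR20, SAUR28 and SAUR63 are shown on the gene's own strand, 5′ to 3′, with the motif in capitals in whichever orientation it occurs.
SAUR15 (chr4:18125807-18126056, plus strand; TGTCTC as its reverse complement, 92 bases before the start): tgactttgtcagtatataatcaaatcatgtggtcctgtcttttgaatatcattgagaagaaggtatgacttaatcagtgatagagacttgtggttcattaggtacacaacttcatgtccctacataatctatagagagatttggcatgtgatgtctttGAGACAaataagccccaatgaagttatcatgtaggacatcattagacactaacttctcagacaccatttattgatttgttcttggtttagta
SAUR20 (chr5:5966786-5967035, minus strand; TGTCTC as its reverse complement, 25 bases before the start): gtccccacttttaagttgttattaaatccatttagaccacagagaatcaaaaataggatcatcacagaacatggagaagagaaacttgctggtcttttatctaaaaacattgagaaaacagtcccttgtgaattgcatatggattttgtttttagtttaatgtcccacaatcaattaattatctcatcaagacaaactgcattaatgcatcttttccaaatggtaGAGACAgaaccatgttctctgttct
SAUR28 (chr3:980563-980812, minus strand; TGTCGG as its reverse complement, 176 bases before the start): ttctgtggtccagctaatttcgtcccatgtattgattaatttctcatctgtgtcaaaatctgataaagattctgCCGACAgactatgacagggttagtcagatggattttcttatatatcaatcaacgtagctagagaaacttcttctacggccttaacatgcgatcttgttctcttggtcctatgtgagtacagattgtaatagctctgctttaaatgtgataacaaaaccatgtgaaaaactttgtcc
SAUR63 (chr1:10305109-10305358, minus strand; TGTCGG, 83 bases before the start): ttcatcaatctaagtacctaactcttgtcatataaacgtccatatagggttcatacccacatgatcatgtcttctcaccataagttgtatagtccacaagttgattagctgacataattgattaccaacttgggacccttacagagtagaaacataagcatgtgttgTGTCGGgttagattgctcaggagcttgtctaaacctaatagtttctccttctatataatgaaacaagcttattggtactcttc

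Of the 16 genes, 15 were detected, meaning at least 1 TPM in at least 2 of the 8 libraries. The exception was SAUR75, which was listed at 0 in 7 libraries and at 0.558 TPM, equal to 1 read, in prp43a control replicate 2. SAUR genes were measured on few reads. A library held 94 to 126 reads over all 16 genes after heat and 259 to 294 at control temperature, and 76 of the 128 values rested on fewer than 10 reads. For the 15 SAUR-like genes 1 read was worth 0.285 to 0.690 TPM, depending on gene length and library. Only 6 of the 16 genes reached 1 TPM in all 8 libraries: SAUR24, SAUR29, SAUR36, SAUR63, SAUR68 and the row named SAUR21.

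The levels of the SAUR genes were lower after heat in both genotypes. The summed level of the 15 SAUR-like genes was 36.2 and 36.8 TPM in heated prp43a and 26.1 and 49.4 TPM in heated wild type, against 110 and 124 TPM in prp43a controls and 126 and 132 TPM in wild-type controls. The sum after heat was 31.2% of the control sum in prp43a and 29.2% in wild type. All 4 heat libraries lay below all 4 control libraries, and heated wild-type replicate 1 was the lowest of all. The largest contributor in every group was SAUR63, which is known to promote elongation of hypocotyls and stamen filaments.

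**Figure D1:**
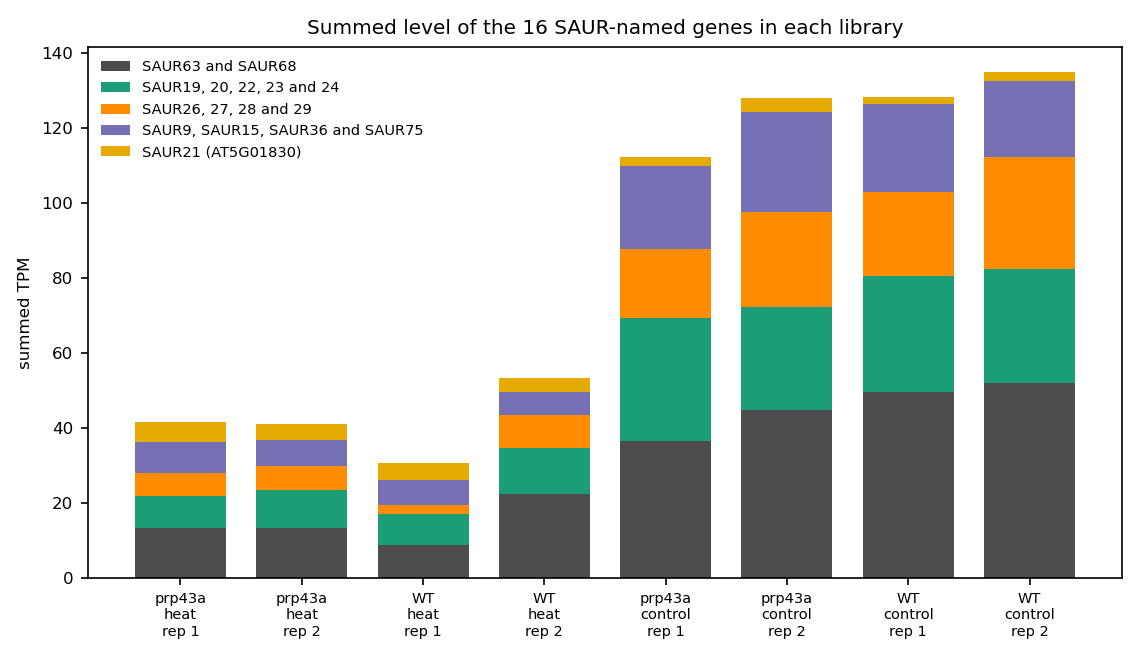
Stacked bars give the summed TPM (y axis) of the 16 SAUR-named genes in each of the 8 libraries (x axis), split into chromosomal groups, with heat libraries on the left. Heat libraries sum to between 30.7 and 53.1 TPM and control libraries to between 112 and 135 TPM.

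In a test over 19697 genes (limma on log2(TPM + 1), Benjamini-Hochberg adjusted), 10 of the 15 detected genes were called lower in heated prp43a than in prp43a controls and 0 higher, with 0 higher at an unadjusted p below 0.05 as well. In wild type 12 were called lower after heat and 1 higher, the row named SAUR21. Over all tested genes, 27% were called lower and 43.1% higher in prp43a (70.1% in all), and 27.6% lower and 42.4% higher in wild type (70% in all). The 10 genes called lower in prp43a were all among the 12 called lower in wild type. The median log2 fold change of the 15 genes was -1.31 in prp43a and -1.43 in wild type, against 0.28 and 0.25 for all tested genes. Counted without a test, 11 of the 15 genes had all 4 heat libraries below all 4 control libraries, as did 27.9% of all tested genes, and 1 had all 4 above, as did 44.5%. SAUR9, SAUR27 and SAUR28 passed the detection limit only through control libraries, so their direction followed from the filter. All of them are counted among the genes called lower in both genotypes. The other 12 genes reached 1 TPM in at least 2 libraries of each condition.

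**Figure D2:**
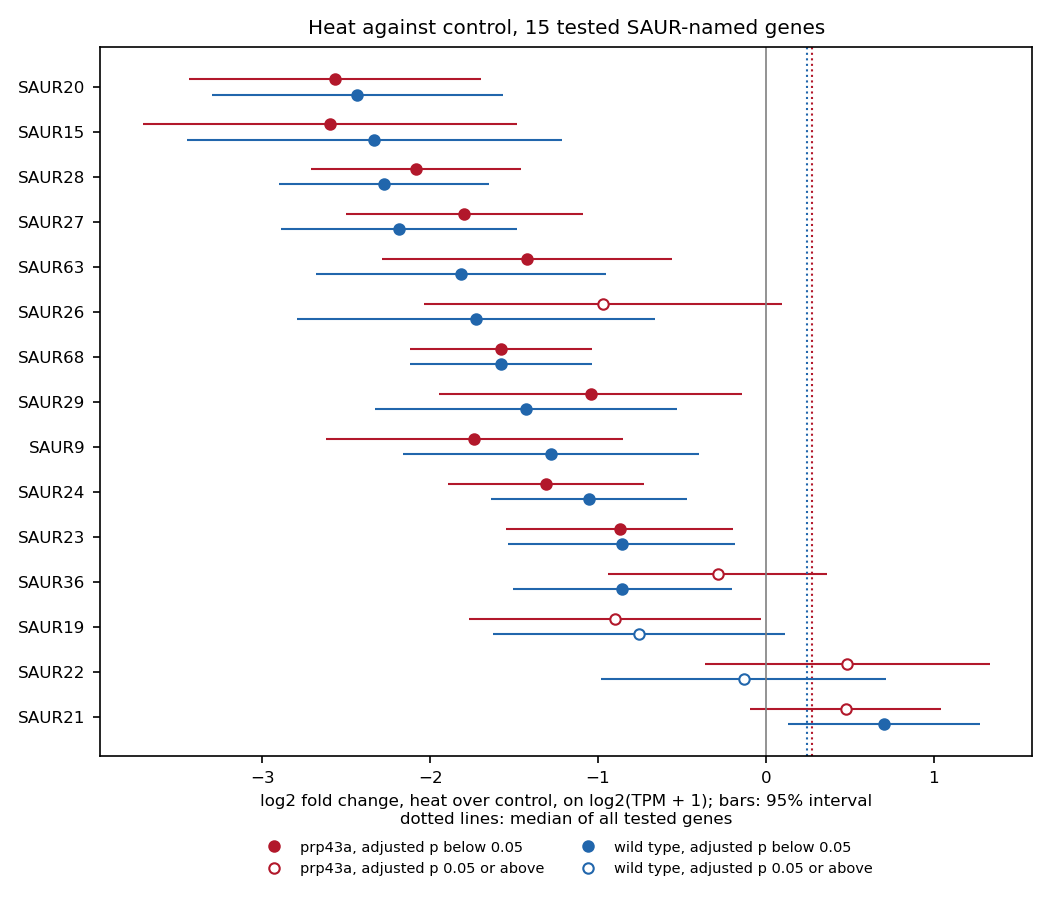
Points give the log2 fold change (x axis, heat over control, on the log2(TPM + 1) scale) of the 15 detected genes (y axis) in prp43a, drawn above wild type, and bars give the 95% interval. Filled points passed an adjusted p of 0.05, and dotted lines mark the medians of all tested genes, 0.28 in prp43a and 0.25 in wild type, to the right of most SAUR genes.

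In these whole seedlings, fewer cells of a type and less RNA per cell cannot be told apart. Markers of root and of green shoot also moved with heat, where 27% of all tested genes were called lower in prp43a and 27.6% in wild type. Of 7 tested root markers 6 were called lower in prp43a and 3 in wild type, and 0 higher in either. Heat libraries listed 3 to 5 of the 9 root markers at 0. The direction of any marker that passed the detection limit through control libraries alone followed from the filter. Of 7 green shoot markers all 7 were called lower in both genotypes, with summed levels of 14760 to 18478 TPM in heated prp43a and 17369 to 18091 TPM in heated wild type, against 53911 to 55584 TPM in prp43a controls and 55826 to 57092 TPM in wild-type controls. With libraries scaled by quantiles, 6 of the 7 were called lower in each genotype, and RBCS1A lost its call. The part of root and shoot markers in the SAUR values was not tested.

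SAUR63 and SAUR68, 2 members of the SAUR63 group, had the highest mean TPM over the 8 libraries among the 16 genes. SAUR63 had 8.75 and 9.26 TPM in heated prp43a and 4.25 and 14.6 TPM in heated wild type, against 22.9 and 29.2 TPM in prp43a controls and 32.8 and 29.1 TPM in wild-type controls. The heat libraries did not overlap the control libraries, and the spread was widest between the heated wild-type libraries. The log2 fold change was -1.42 ± 0.39 (SE, adjusted p = 0.0077) in prp43a and -1.82 ± 0.39 (SE, adjusted p = 0.0019) in wild type. SAUR68 had 4.46 and 3.90 TPM in heated prp43a and 4.47 and 7.62 TPM in heated wild type, against 13.6 and 15.4 TPM in prp43a controls and 16.7 and 22.7 TPM in wild-type controls. Its groups did not overlap between conditions either. The log2 fold change of SAUR68 was -1.58 ± 0.24 (SE) in both genotypes, with adjusted p = 0.00023 in prp43a and 0.00022 in wild type. AT1G29490, which RefSeq also calls SAUR68, had 0.535 to 3.13 TPM over all libraries. It was not called after heat (-0.10, adjusted p = 0.85 in prp43a, and -0.70, adjusted p = 0.19 in wild type). The summed level of SAUR63 and SAUR68 after heat was 32.5% of control in prp43a and 30.5% in wild type.

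The SAUR19 group, whose members stimulate cell expansion when overexpressed, was not uniform. SAUR20 carried the largest difference. It had 0.672 and 3.30 TPM in heated prp43a and 1.21 and 1.82 TPM in heated wild type, against 16.1 and 13.7 TPM in prp43a controls and 14.9 and 10.5 TPM in wild-type controls. The heat values rested on 1 to 5 reads and the control values on 18 to 29 reads, with no overlap. The log2 fold change was -2.57 ± 0.39 (SE, adjusted p = 0.00020) in prp43a and -2.43 ± 0.39 (SE, adjusted p = 0.00029) in wild type. SAUR24 had 1.94 and 3.18 TPM in heated prp43a and 3.50 and 4.68 TPM in heated wild type, against 8.58 and 6.88 TPM in prp43a controls and 8.03 and 11.2 TPM in wild-type controls. It fell in both genotypes, by 1.31 on the log2 scale in prp43a (adjusted p = 0.0013) and by 1.05 in wild type (adjusted p = 0.0047).

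The other 3 genes of the SAUR19 array had low levels throughout. SAUR23 had 1.50 and 0.983 TPM in heated prp43a and 1.35 and 0.904 TPM in heated wild type, against 4.14 and 2.22 TPM in prp43a controls and 3.10 and 2.59 TPM in wild-type controls. Its heat libraries, at 2 to 3 reads, lay below its control libraries, at 5 to 10 reads, and it was called lower in prp43a (log2 fold change -0.87, adjusted p = 0.026) and in wild type (-0.86, adjusted p = 0.027). SAUR19 had 0.640 and 1.26 TPM in heated prp43a and 1.15 and 2.89 TPM in heated wild type, against 1.59 and 3.97 TPM in prp43a controls and 3.40 and 4.43 TPM in wild-type controls. The conditions did not overlap within a genotype but did across genotypes, and the log2 fold changes of -0.90 in prp43a (adjusted p = 0.061) and -0.76 in wild type (adjusted p = 0.11) did not pass the test. SAUR22 had 3.80 and 1.60 TPM in heated prp43a and 0.978 and 1.96 TPM in heated wild type, against 2.25 and 0.961 TPM in prp43a controls and 1.44 and 1.88 TPM in wild-type controls. The libraries of SAUR22, at 2 to 7 reads, overlapped between conditions in both genotypes, with log2 fold changes of 0.48 in prp43a (95% interval -0.36 to 1.33) and -0.13 in wild type (-0.98 to 0.72). Neither passed the test (adjusted p = 0.27 in prp43a and 0.77 in wild type). The group as a whole summed after heat to 31.2% of control in prp43a and 33.3% in wild type.

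**Figure D3:**
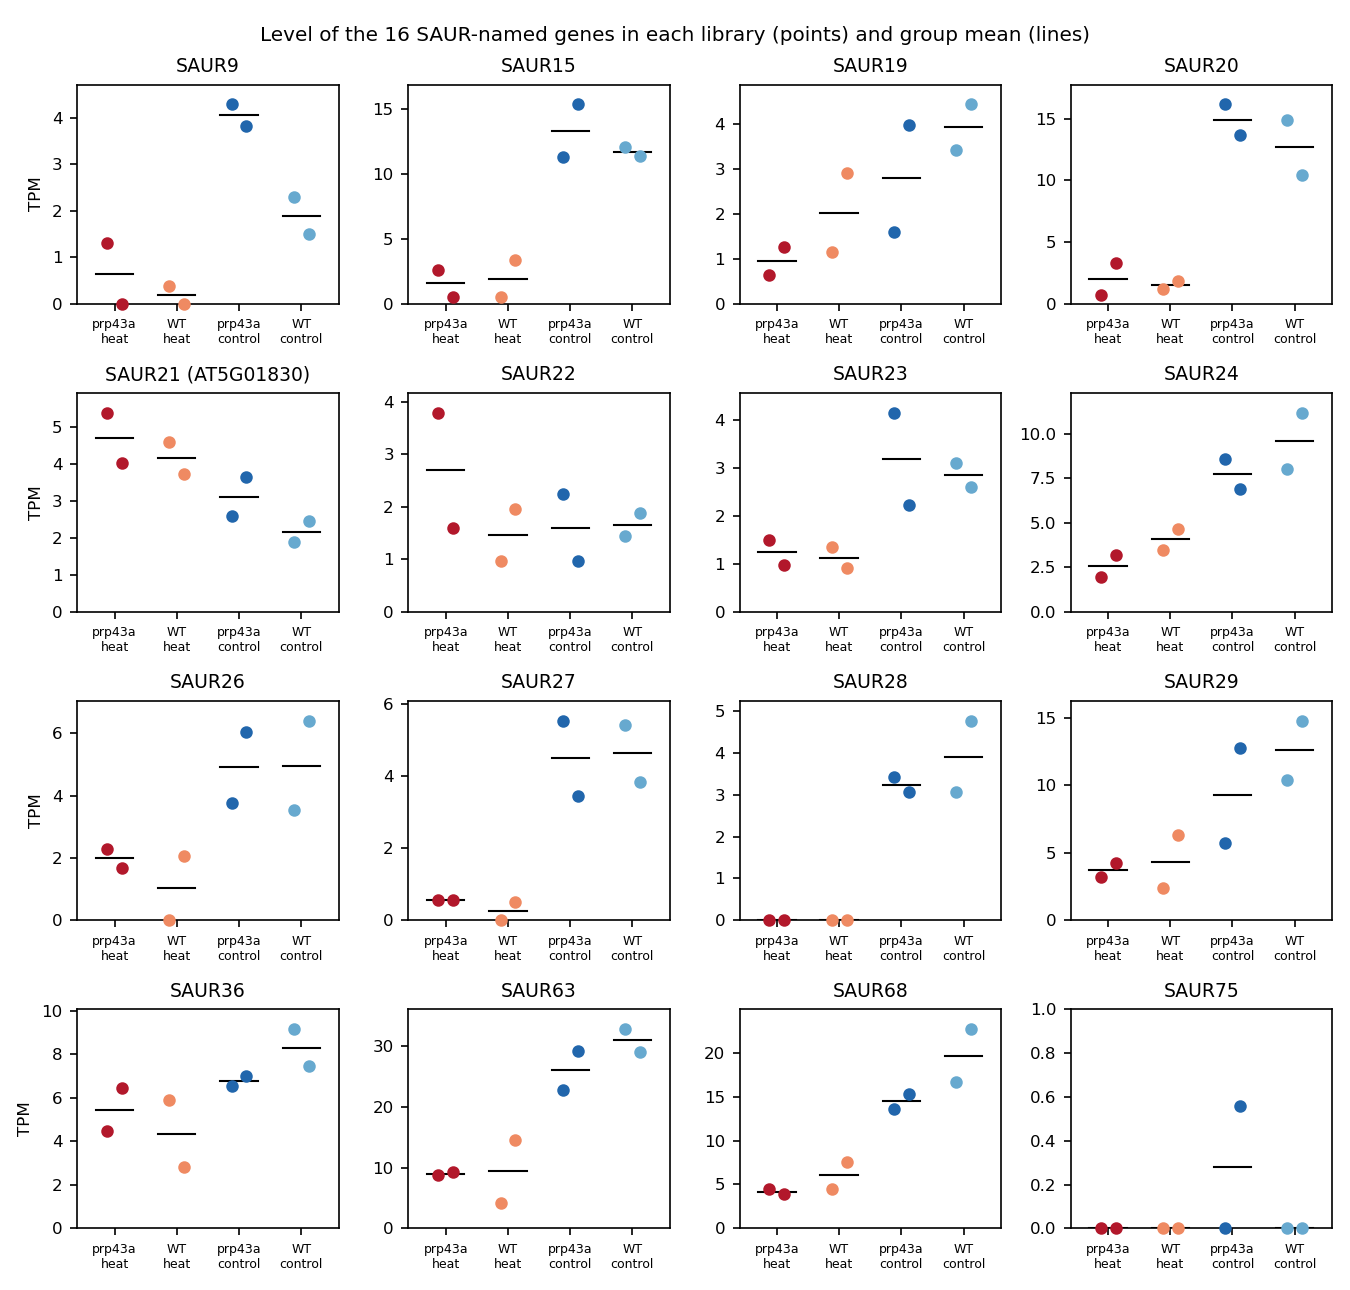
Each panel gives the TPM (y axis, from 0) of 1 SAUR-named gene in the 2 libraries (points) of each group (x axis, heat groups left of control groups), with the group mean as a line. SAUR15, SAUR20, SAUR28, SAUR63 and SAUR68 show separate levels after heat and at control temperature, whereas the points of SAUR22 overlap.

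In the SAUR26 array, SAUR26, SAUR27 and SAUR28 are known from natural accessions as genes whose expression varies with growth architecture and its response to warmth. SAUR28 was listed at 0 in all 4 heat libraries, against 3.43 and 3.06 TPM in prp43a controls and 3.06 and 4.77 TPM in wild-type controls, which rested on 5 to 8 reads. Taking 3 reads per library as the floor, its level was at least 1.58-fold lower after heat in prp43a and at least 2.10-fold lower in wild type. It was called lower in prp43a (adjusted p = 8.9e-05) and in wild type (adjusted p = 4.7e-05). SAUR28 and SAUR27 passed the detection limit only through control libraries, so the direction of both followed from the filter. SAUR27 had 0.555 and 0.545 TPM in heated prp43a and 0 and 0.502 TPM in heated wild type, against 5.52 and 3.44 TPM in prp43a controls and 5.41 and 3.84 TPM in wild-type controls. No heat library held more than 1 read of SAUR27, and control libraries held 7 to 12. Its log2 fold change was -1.80 ± 0.32 (SE, adjusted p = 0.00054) in prp43a and -2.18 ± 0.32 (SE, adjusted p = 0.00014) in wild type.

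SAUR26 had 2.28 and 1.68 TPM in heated prp43a and 0 and 2.06 TPM in heated wild type, against 3.77 and 6.05 TPM in prp43a controls and 3.53 and 6.40 TPM in wild-type controls. Heat libraries lay below control libraries. The test passed in wild type (log2 fold change -1.73 ± 0.48, SE, adjusted p = 0.0084) and not in prp43a (-0.97 ± 0.48, SE, adjusted p = 0.094). The difference between these responses was not called (0.76, 95% interval -0.75 to 2.26, adjusted p = 0.93), and it was -0.05 without heated wild-type replicate 1, the library with 0 reads of SAUR26. SAUR29, the most highly expressed gene of this array, had 3.20 and 4.19 TPM in heated prp43a and 2.40 and 6.26 TPM in heated wild type, against 5.74 and 12.8 TPM in prp43a controls and 10.4 and 14.7 TPM in wild-type controls. Heated wild-type replicate 2 exceeded prp43a control replicate 1, so the conditions overlapped across genotypes, though not within either. SAUR29 was called lower in prp43a (log2 fold change -1.04, adjusted p = 0.040) and in wild type (-1.43, adjusted p = 0.0094). The call in prp43a was lost in 7 of 18 alternative settings. The 4 genes summed after heat to 28.4% of control in prp43a and 21.5% in wild type.

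SAUR15, first described as SAUR-AC1 and long used as an early auxin marker, was also lower after heat. It had 2.62 and 0.515 TPM in heated prp43a and 0.472 and 3.32 TPM in heated wild type, against 11.3 and 15.3 TPM in prp43a controls and 12.1 and 11.3 TPM in wild-type controls. Every heat library lay well below every control library, but the heat values rested on only 1 to 7 reads and varied widely within each genotype. The log2 fold change was -2.60 ± 0.50 (SE, adjusted p = 0.0010) in prp43a and -2.33 ± 0.50 (SE, adjusted p = 0.0020) in wild type.

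SAUR9, whose protein is known to inhibit D-clade phosphatases, had 1.29 and 0 TPM in heated prp43a and 0.389 and 0 TPM in heated wild type, against 4.29 and 3.82 TPM in prp43a controls and 2.29 and 1.49 TPM in wild-type controls. At 0 to 3 reads after heat it was near the limit of detection. It was called lower in prp43a (log2 fold change -1.74, adjusted p = 0.0029) and in wild type (-1.28, adjusted p = 0.015). As SAUR9 passed the detection limit only through control libraries, its direction followed from the filter. SAUR36, also named SAG201 and known to promote leaf senescence, had 4.48 and 6.43 TPM in heated prp43a and 5.90 and 2.80 TPM in heated wild type, against 6.56 and 7.02 TPM in prp43a controls and 9.15 and 7.44 TPM in wild-type controls. The highest heat library and the lowest control library of SAUR36, both of prp43a, differed by less than 1 read is worth. It was called lower in wild type (log2 fold change -0.85, adjusted p = 0.024) and not in prp43a (-0.29, adjusted p = 0.40), with no call for the difference of both responses (0.57, 95% interval -0.36 to 1.49, adjusted p = 0.89).

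The row named SAUR21, the ARM repeat locus AT5G01830, was the one gene of the 16 whose 4 heat libraries all lay above its 4 control libraries. It had 5.38 and 4.03 TPM in heated prp43a and 4.59 and 3.71 TPM in heated wild type, against 2.58 and 3.63 TPM in prp43a controls and 1.88 and 2.45 TPM in wild-type controls. The heat values rested on 29 to 38 reads and the control values on 15 to 29. The log2 fold change was 0.70 ± 0.26 (SE, adjusted p = 0.031) in wild type, a call that was lost when libraries were scaled by median of ratios (0.49, adjusted p = 0.11) or by quantiles (0.66, adjusted p = 0.050). In prp43a it was 0.48 ± 0.26 (SE, adjusted p = 0.12). Without this row, 12 of 14 detected genes were called lower in wild type and 10 in prp43a, and 0 higher.

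Median-of-ratios scaling, which aligns libraries on their median gene, moved the median of all tested genes to -0.01 in prp43a and -0.00 in wild type. As deposited these medians were 0.28 and 0.25. They depended on the pseudocount, at 0.31 and 0.27 with 0.1, and 0.19 and 0.17 with 5. Whether they reflect scaling or changes of the genes was not tested. Under this scaling 12 SAUR genes were called lower after heat in prp43a and 13 in wild type, with 0 higher in either. Calls of lower also rose over all 19697 tested genes, from 5321 to 6800 in prp43a and from 5442 to 6771 in wild type. The share of all heat calls that were higher was 49.2% in prp43a and 49.6% in wild type under this scaling, against 60.5% in wild type with TPM as deposited.

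No SAUR gene passed the test between prp43a and wild type in either condition. At control temperature 0 of the 15 genes were called between prp43a and wild type, against 0.0711% of all tested genes (14 genes, all lower in prp43a), and 0 of the 15 had an unadjusted p below 0.05, against 1760 of all tested genes. A fit to recovered reads with limma's voom also called 0 SAUR genes in each genotype comparison. The smallest p belonged to SAUR9, which had 4.29 and 3.82 TPM in prp43a, against 2.29 and 1.49 TPM in wild type. Its groups did not overlap, at 10 to 12 reads against 4 to 6, but the log2 fold change of 0.82 did not pass (95% interval -0.07 to 1.70, adjusted p = 0.59). SAUR68 was lower in both prp43a controls than in both wild-type controls, with a log2 fold change of -0.41 (95% interval -0.95 to 0.13, adjusted p = 0.69). SAUR29 (-0.48, 95% interval -1.38 to 0.42) and AT5G01830 (0.37, 95% interval -0.20 to 0.94) followed. The sum over the 15 SAUR-like genes was 117 ± 10.3 TPM in prp43a, against 129 ± 4.31 TPM in wild type (SD, n = 2 each).

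After heat 0 of the 15 genes were called between prp43a and wild type, against 0.00508% of all tested genes (1 gene), and 0 of the 15 had an unadjusted p below 0.05, against 899 of all tested genes. SAUR24 had the smallest p, with 1.94 and 3.18 TPM in prp43a, against 3.50 and 4.68 TPM in wild type. The log2 fold change was -0.53 (95% interval -1.11 to 0.06, adjusted p = 1.00), from values of 3 to 8 reads. SAUR68 (-0.41, 95% interval -0.95 to 0.13), SAUR26 (0.76, 95% interval -0.31 to 1.83) and SAUR19 (-0.59, 95% interval -1.46 to 0.28) came next. The summed level was 36.5 ± 0.45 TPM in prp43a, against 37.7 ± 16.5 TPM in wild type (SD, n = 2 each). Of the heated wild-type libraries, replicate 1 had the lower value of SAUR63, SAUR29, SAUR68 and SAUR15 and the higher value of SAUR36.

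**Figure D4:**
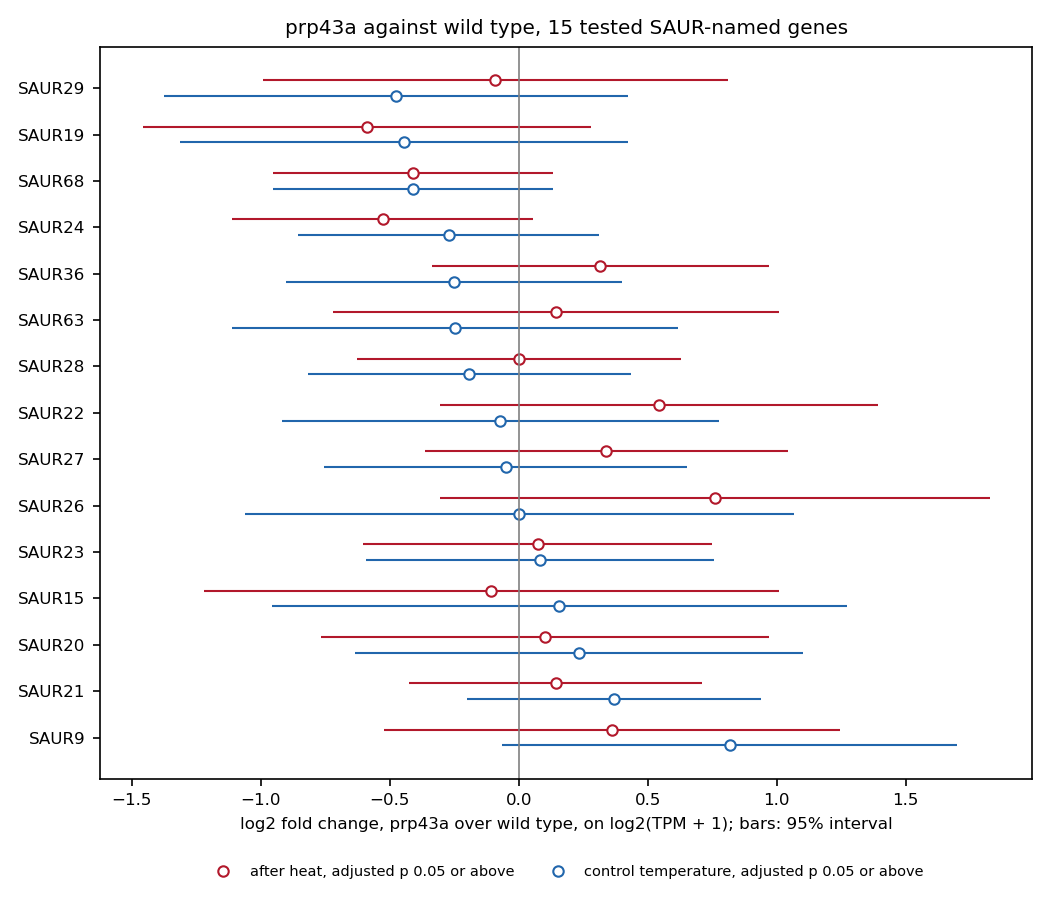
Points give the log2 fold change (x axis, prp43a over wild type, on the log2(TPM + 1) scale) of the 15 detected genes (y axis) after heat, drawn above control temperature, with the 95% interval as bars. Every point is open, meaning that no gene passed an adjusted p of 0.05, and every interval includes 0.

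The response to heat was compared between genotypes as a difference of the log2 fold changes, prp43a minus wild type. This was called for 0 of the 15 genes, against 0.0102% of all tested genes (2 genes), and 0 of the 15 had an unadjusted p below 0.05, against 1237 of all tested genes. The smallest p values were those of SAUR36 (0.57), SAUR22 (0.62, 95% interval -0.58 to 1.82), SAUR26 (0.76) and SAUR27 (0.39, 95% interval -0.61 to 1.38). The intervals of the differences were wide: that of SAUR63 ran from -0.83 to 1.62 and that of SAUR20 from -1.36 to 1.10. Differences within these intervals were not detectable at this depth with 2 libraries per group, and the absence of a call does not show that both genotypes responded alike.

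The table held 63 further loci that RefSeq annotates as SAUR-like auxin-responsive proteins but that carry no SAUR number as gene name there. Of these, 43 were detected and 8 were listed at 0 in all libraries. Some passed the detection limit through a single condition, so their direction followed from the filter, and they are part of the counts that follow. Examples are AT2G37030 and AT3G53250, through control libraries, and AT2G24400 and AT4G12410, through heat libraries. After heat 19 of the 43 were called lower and 5 higher in prp43a, with a median log2 fold change of -0.68, and 16 lower and 6 higher in wild type, where the median was -0.57. Of all tested genes, 27% were called lower and 43.1% higher in prp43a, and 27.6% and 42.4% in wild type. The 15 SAUR-named genes had medians of -1.31 and -1.43, or -1.04 and -1.28 with SAUR28 set to 3 reads per heat library. No such floor was set for the other loci. AT5G18030, the locus in the SAUR19 array that RefSeq also calls SAUR21, fell with its neighbours. It had 2.90 and 1.90 TPM in heated prp43a and 0.871 and 3.06 TPM in heated wild type, against 7.20 and 8.99 TPM in prp43a controls and 5.14 and 11.7 TPM in wild-type controls (log2 fold change -1.43, adjusted p = 0.011 in prp43a, and -1.68, adjusted p = 0.0046 in wild type).

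**Figure D5:**
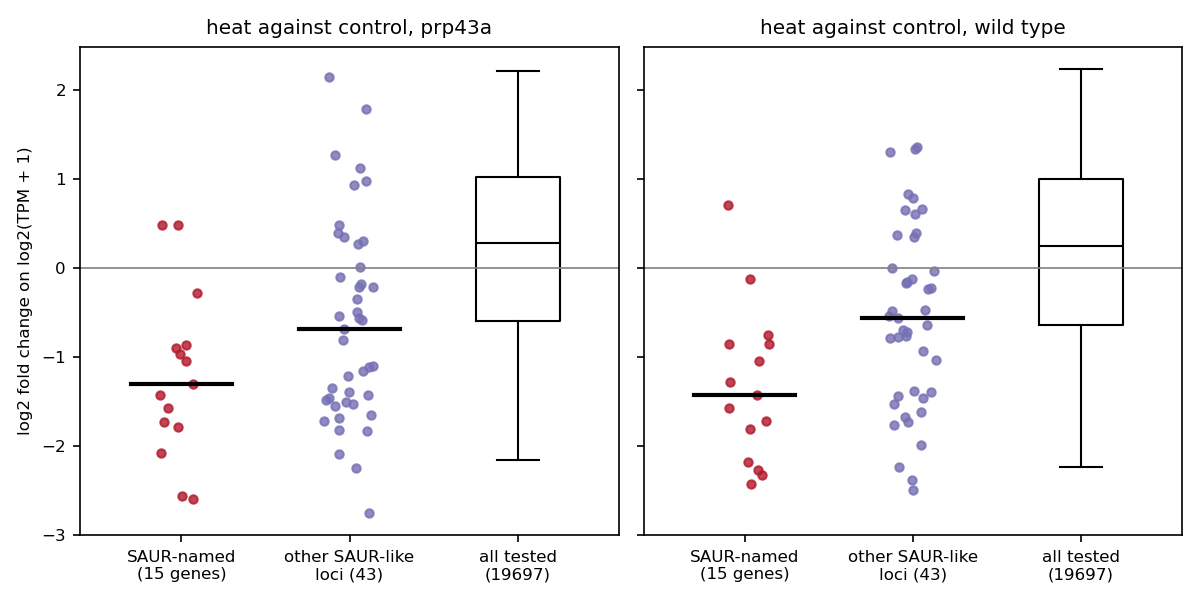
Points give the log2 fold change after heat (y axis, on the log2(TPM + 1) scale) of the 15 SAUR-named genes and of 43 other SAUR-like loci in prp43a (left) and wild type (right), with medians as black lines. Boxes span the 25th to 75th percentile and whiskers the 5th to 95th percentile of all 19697 tested genes. Both SAUR sets have their median below 0 and the box median lies above 0.

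The genes around the SAUR proteins in the auxin pathway were read from lists by locus. Their counts stand beside shares over all tested genes of 27% lower and 43.1% higher in prp43a, and 27.6% and 42.4% in wild type. Among 6 auxin receptors, 1 was called lower and 1 higher after heat in both genotypes. These were TIR1, the founding receptor (-0.59 in prp43a, -0.46 in wild type), and AFB5 (0.59 in prp43a, 0.52 in wild type). Among 7 auxin response factors, 3 were called lower in both genotypes, and 2 higher in prp43a and 1 in wild type. ARF19, an activator, fell (-0.77 in prp43a, -0.94 in wild type), as did MP, also named ARF5 (-0.60 and -0.92) and ARF2 (-0.66 and -0.79). NPH4, also named ARF7 and an activator of growth responses, rose to 29.8 ± 0.50 TPM in heated prp43a and 26.5 ± 4.20 TPM in heated wild type, against 14.5 ± 1.02 TPM in prp43a controls and 13.5 ± 1.93 TPM in wild-type controls (SD, n = 2 each). ARF8 was called higher in prp43a (0.40), a call that both other scalings removed.

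For the next lists the same shares apply, 27% lower and 43.1% higher in prp43a, and 27.6% and 42.4% in wild type. Of 7 tested auxin synthesis genes out of 13 listed, 3 were called lower in both genotypes and 0 higher. These were TAR2 (-1.99 in prp43a, -1.69 in wild type) and TAA1 (-0.84 and -0.61), aminotransferases of the first step from tryptophan, and YUC5 (-1.28 and -1.33), a flavin monooxygenase of the second step. Of 9 carriers, 8 were called lower in both genotypes, and the result of the other one is not reported here. The influx carriers LAX3 (-2.96 in prp43a, -2.26 in wild type) and AUX1 (-1.55 and -1.54) and the efflux carrier PIN4 (-1.65 and -1.81) were among those that fell. Of 6 tested GH3 genes out of 8, which encode enzymes that conjugate auxin or jasmonate to amino acids and include early auxin-responsive genes, 3 were called lower in both genotypes and 1 higher. DFL1, also named GH3.6, fell to 13.9 ± 0.17 TPM in heated prp43a and 12.1 ± 0.14 TPM in heated wild type, against 38.7 ± 5.86 TPM in prp43a controls and 35.4 ± 4.83 TPM in wild-type controls (SD, n = 2 each). GH3.9 (-1.63 in prp43a, -1.58 in wild type) and GH3.17 (-1.46 and -1.54) also fell, whereas GH3.3 rose (1.00 and 0.85). The call for GH3.3 in wild type was lost under median-of-ratios scaling (0.59, adjusted p = 0.053).

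The D-clade phosphatases and the plasma membrane proton pumps downstream of them moved in both directions, as tested genes did at large. Among all of those, 27% were called lower and 43.1% higher in prp43a, and 27.6% and 42.4% in wild type. Of 9 D-clade phosphatases, 3 were called lower and 4 higher in prp43a, and 2 lower and 5 higher in wild type. Under both other scalings these counts were 4 lower and 1 higher in each genotype, so the direction of this list depended on the scaling. AT5G02760, also named APD7, had the largest change. It fell to 6.75 ± 2.86 TPM in heated prp43a and 5.33 ± 1.85 TPM in heated wild type, against 81.4 ± 24.7 TPM in prp43a controls and 58.5 ± 5.80 TPM in wild-type controls (SD, n = 2 each; log2 fold change -3.43 and -3.26). Of 10 tested plasma membrane proton pumps out of 11, 5 were called higher and 1 lower in prp43a, and 4 higher and 2 lower in wild type. HA1, also named AHA1 and with HA2 a main pump of seedlings, had 376 ± 20.6 TPM in heated prp43a and 393 ± 10.3 TPM in heated wild type, against 200 ± 7.52 TPM in prp43a controls and 213 ± 7.56 TPM in wild-type controls (SD, n = 2 each). HA9 was listed at 0 in all 4 control libraries, and averaged 52.2 TPM in heated prp43a and 45.5 TPM in heated wild type. As HA9 passed the detection limit only through heat libraries, its direction followed from the filter. It is part of the counts of pumps called higher in both genotypes. HA11 fell (-0.82 in prp43a, -0.44 in wild type). HA2 was called higher (0.35 in prp43a, 0.27 in wild type), but under median-of-ratios scaling its values were 0.04 and -0.01, neither of which passed.

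Among 12 upstream growth regulators, 6 were called lower and 5 higher in prp43a, and 6 lower and 4 higher in wild type. All tested genes had 27% lower and 43.1% higher in prp43a, and 27.6% and 42.4% in wild type. PIF4, a bHLH activator of SAUR genes in elongating hypocotyls, fell to 2.17 ± 0.027 TPM in heated prp43a and 2.11 ± 0.60 TPM in heated wild type, against 56.8 ± 3.92 TPM in prp43a controls and 63.3 ± 4.69 TPM in wild-type controls (SD, n = 2 each). PIL6, also named PIF5, fell to 11.8 ± 1.07 TPM in heated prp43a and 14.1 ± 3.16 TPM in heated wild type, against 118 ± 3.58 TPM in prp43a controls and 112 ± 2.35 TPM in wild-type controls. BES1, a brassinosteroid-activated factor, fell as well (log2 fold change -2.58 in prp43a, -2.30 in wild type), and so did GAI, a DELLA repressor of growth (-1.08 in both). ELF3, an evening complex protein that represses PIF4, rose (2.45 in prp43a, 2.56 in wild type). HY5, a repressor of hypocotyl elongation, was called higher as well (0.74 and 0.95), although in prp43a both other scalings removed the call. The calls for PIF3 and PHYB, which passed as higher in both genotypes, were removed by both other scalings. None of the genes on these 8 lists was called between prp43a and wild type in either condition, nor for the difference of the heat responses. Of all 19697 tested genes, 14 were called at control temperature, 1 after heat and 2 for the difference. At an unadjusted p below 0.05 there were 1 list gene at control temperature, 3 after heat and 0 for the difference. Over all tested genes these counts were 1760, 899 and 1237. Whether any of these changes bears on the SAUR genes was not tested.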

How the data were processed

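The deposited file is 1 table of TPM values (shares of transcripts that add up to 1000000 per library) for 27655 genes in 8 libraries, per the file headers. Per the submitters' processing notes the genome build was TAIR10, and per the labels' protocols libraries came from a stranded mRNA kit with paired 75-base reads. Aligner, counter and treatment of multiply matching reads are not given in the sources read. Sequences, positions and older names came from RefSeq (TAIR10.1).

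Reads were recovered from TPM with exon lengths of that annotation (the gene span for SAUR20), and 99.2% of 126905 values of at most 200 reads came out whole within 0.05. A unit may be either a single read or a pair of reads. Genes with at least 1 TPM in at least 2 libraries (19697) entered 1 fit of log2(TPM + 1) in limma 3.58.1 (R 4.3.3; moderated test with a mean-variance trend, all 8 libraries, 4 groups, called at adjusted p below 0.05). Fold changes on this scale understate the change of low genes. Groups of 2 are too small for a permutation test at this threshold. Same-numbered libraries of different groups deviated together at r = -0.03 to 0.03, so replicate numbers were not used as pairs.

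The SAUR genes, the pathway and marker lists and the rule for named genes were chosen with earlier results of these data known. Values per library were given for the 8 genes with the highest mean, the called genes with the largest heat changes at a group mean of at least 5 TPM, and the 4 smallest p in each genotype comparison. SAUR23, SAUR28 and SAUR75 were added after their values were seen. List genes were named for up to 4 called members in each direction, and other SAUR-like loci after their values were seen. Alternatives were pseudocounts of 0.1 and 5, no filter, a filter of 5 TPM, no trend, 2 other scalings, a replicate block, voom on recovered reads, leaving out each library and fits to 4 libraries. The table without SAUR21, and the lists under other scalings, were added after the data were seen.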

Additional observations from a re-analysis of the deposited data

How the results depend on the processing

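The number of SAUR genes called lower after heat stayed within 1.5 times the reported 10 in prp43a (7 to 12) and 12 in wild type (9 to 13) under every setting tried. The 1 gene called higher in wild type, the row named SAUR21, fell to 0 with median-of-ratios scaling, with quantile normalization, with a filter of 5 TPM, which left that row untested, and, chosen after seeing the data, with SAUR21 left out. Leaving out 1 library gave 0 to 1, with 0 without wild-type control replicate 1 or heated wild-type replicate 1. With at least 5 TPM in 2 libraries as the limit, 9 SAUR genes were detected in place of 15. In all 3 genotype comparisons 0 SAUR genes were called under every setting. Replicate numbers did not pair the samples, and with a replicate block 11 SAUR genes were called lower in prp43a and 13 in wild type, with 0 and 1 higher. SAUR15, SAUR20, SAUR24 and SAUR68 kept their calls in both genotypes under every setting. SAUR27 and SAUR28 did so wherever tested, but passed the filter through control libraries alone. Of 17 or 18 settings per gene, the call of SAUR29 in prp43a was lost in 7, of SAUR23 in 3 and of SAUR63 in 2, and SAUR26 gained one in 5 and SAUR19 in 3. In wild type the call of SAUR23 was lost in 4, of SAUR36 in 3, and of SAUR9, SAUR26 and SAUR29 in 2 each, and SAUR19 gained one in 3. The 4 values named next, none of them called, changed sign when 1 library was left out. Without heated wild-type replicate 1, SAUR22, heat against control in wild type, was 0.16 (-0.42 without replicate 2), SAUR26, prp43a against wild type after heat, was -0.046 (1.57 without replicate 2), and SAUR26, difference of the heat responses (prp43a minus wild type), was -0.049 (1.56 without replicate 2). Without prp43a control replicate 1, SAUR29, prp43a against wild type at control temperature, was 0.038 (-0.99 without replicate 2). The median log2 fold change in wild type was -1.03 without heated replicate 1 and -1.91 without heated replicate 2. Where a library was left out, the lone library of its group was assumed to vary like the others. Few reads limited every SAUR value.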

Other observations

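Among the 43 detected SAUR-like loci without a SAUR name in the table, several had higher levels than any of the 16 named genes. AT1G72430, listed by RefSeq also as SAUR78, fell to 70.0 and 70.4 TPM in heated prp43a and 73.0 and 70.5 TPM in heated wild type, against 161 and 168 TPM in prp43a controls and 135 and 162 TPM in wild-type controls. AT4G38860 (SAUR16) fell to 20.9 and 19.4 TPM in heated prp43a and 11.5 and 23.8 TPM in heated wild type, against 76.2 and 58.6 TPM in prp43a controls and 55.5 and 59.8 TPM in wild-type controls. Both passed limma's test in both genotypes. AT4G38840 (SAUR14), annotated on the other side of SAUR15 from AT4G38860, overlapped between conditions, with 91.2 and 83.4 TPM in heated prp43a and 64.6 and 95.0 TPM in heated wild type, against 95.2 and 79.0 TPM in prp43a controls and 73.4 and 88.5 TPM in wild-type controls (log2 fold change 0.01 in prp43a, -0.04 in wild type). AT1G29430 (SAUR62) and AT1G29500 (SAUR66), in the same stretch of chromosome 1 as SAUR63 and SAUR68, fell by 1.72 and 2.75 on the log2 scale in prp43a and by 2.24 and 2.50 in wild type.

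A few loci of the family moved the other way. AT3G60690 (SAUR59) had 20.4 and 19.4 TPM in heated prp43a and 17.2 and 20.3 TPM in heated wild type, against 8.74 and 10.6 TPM in prp43a controls and 13.6 and 7.95 TPM in wild-type controls. It was called higher in both genotypes, although in wild type median-of-ratios scaling removed the call (log2 fold change 0.52, adjusted p = 0.056). AT4G12410 (SAUR35) had 6.09 and 2.14 TPM in heated prp43a and 1.96 TPM in both heated wild-type libraries, against 0.360 and 0.385 TPM in prp43a controls and 0 and 0.376 TPM in wild-type controls, and was called higher in both genotypes. It passed the detection limit only through heat libraries, so its direction followed from the filter. AT2G21200 (SAUR7) had 9.03 and 10.6 TPM in heated prp43a and 2.85 and 11.0 TPM in heated wild type, against 0.748 and 2.40 TPM in prp43a controls and 1.60 and 1.95 TPM in wild-type controls, and the call in wild type was removed by median-of-ratios scaling (log2 fold change 1.08, adjusted p = 0.064). No locus of these 43 was called between prp43a and wild type in either condition by limma, with 5 at an unadjusted p below 0.05 at control temperature and 2 after heat. Of all 19697 tested genes, 14 were called at control temperature and 1 after heat, and 1760 and 899 had an unadjusted p below 0.05.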
